A study of Mus musculus with 30 samples.

Results

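Memory CD8+ T cells cultured by themselves were compared after 18 h of stimulation and before stimulation (0 h), on 3 Affymetrix arrays at each time. These 6 arrays were chosen by their titles out of 30 arrays in 10 groups, and the comparison ran over all 19938 genes that could be named. At 18 h the memory cells (TMem) had been differentiated in culture, sorted by flow cytometry and stimulated with antibodies to CD3 and CD28 together with IL-2. At 0 h the same kind of sorted TMem cells had received no stimulation. No group was cultured alone for 18 h without stimulation. The antibodies, the added IL-2 and 18 h of further culture therefore cannot be told apart in the differences below. All groups used here came from spleens of adult C57BL/6 mice of 6 to 12 weeks that carried the Pmel-1 transgene, a T cell receptor of a single specificity. TMem cells had the Ly5.2 form of the congenic marker Ly5. Naive cells (TN, Ly5.1) cultured alone with the same antibodies and IL-2 for 18 h, or left without stimulation at 0 h, and TMem cells stimulated alone for 96 h were used beside them. The study as a whole also cultured both cell types together, and those arrays entered only the estimate of the spread. TMem cells made in culture stand for memory cells here, and cells with 1 transgenic receptor do not show how a mixed repertoire responds. Each group was described in the labels as biological repeats in triplicate, and p-values measure the spread between these samples only.

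A memory CD8+ T cell that meets its antigen again signals through the T cell receptor and CD28 to the transcription factors NFAT, AP-1 and NF-kB. It can then release cytokines and chemokines within hours, and it prepares for division by making ribosomes, nucleotides and amino acid transporters. Genes of rest and recirculation are usually lowered over the same time. IL-2 in the culture adds signals through STAT5.

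The cells were checked against markers before their response was read. T cell genes were high at both times, with Cd3e, a chain of the CD3 complex, at 12.12, 11.75 and 12.10 in TMem cells at 18 h, against 12.37, 12.45 and 12.40 at 0 h and Cd8a, a chain of CD8, at 11.54, 11.60 and 11.73 at 18 h, against 11.76, 11.74 and 12.44 at 0 h. All 6 measured markers of antigen-experienced cells (Cd44, Il2rb, Cxcr3, Eomes, Tbx21 and Ccl5) were higher in every TMem array at 0 h than in every TN array at 0 h. Of 9 measured CD8 T cell markers, 1 was higher in this way. The share of all genes with such a separation was not counted, so these counts have no yardstick. All mice are labelled female, and the TMem arrays went against this. Xist, the RNA of the inactive X chromosome, lay at 5.14 to 5.55 in TMem cells at 18 h and 5.54 to 5.76 at 0 h, near the lower quartile of all values. The Y-linked gene Eif2s3y lay at 9.05 to 9.38 in TMem cells at 18 h and 8.82 to 9.47 at 0 h, and Kdm5d and Uty were likewise high at both times. The 6 TMem arrays were thus alike in these genes. TN arrays were not: Eif2s3y lay at 8.09 to 8.25 in TN cells at 18 h, against 4.0 to 4.58 at 0 h, while Xist lay at 11.18 to 11.34 at 18 h and 9.34 to 10.99 at 0 h. Kcnma1, a potassium channel gene, lay at 6.35 to 6.60 in TN cells at 18 h, against 12.55 to 12.72 at 0 h. For every TN value below, the time of stimulation and the source of the cells cannot be told apart. TMem and TN arrays at 0 h also differed in Xist and Eif2s3y. In the marker counts above, cell type and source of the cells therefore cannot be told apart either. Xist and Kdm5d were chosen after their values were seen.

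The TMem arrays at 0 h were less alike than those at 18 h, with a median SD per gene of 0.100 at 18 h and 0.157 at 0 h. Replicate 1 at 0 h stood apart with high transcripts of activation. Ifng was at 11.36 there, against 8.01 and 8.15 in the other arrays at 0 h, and Il3 was at 7.51, against 4.50 and 4.59. Replicate 3 at 0 h differed in another set of genes. It had less Cd44 (7.77, against 9.37 and 9.04) and Asns (8.99, against 11.27 and 11.00), and more Itgae (10.82, against 8.81 and 9.0) and Foxp3 (8.62, against 6.88 and 7.21). Many results that rest on these arrays are given without them as well, but others are given with all arrays only. Among the latter are Sema6d, Serpinb6b, Ccr4, Tigit, Alcam and Tnfrsf9, whose arrays at 0 h spanned 1.44 to 2.34. Irgm1, highest in replicate 3 at 0 h, is another.

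Differences below are TMem at 18 h minus TMem at 0 h on the log2 scale, so that 1 is a doubling, with the standard error after ±. Standard errors and p-values rest on a spread pooled over all 10 groups. For genes that varied widely at 0 h, such as Il3 and Ifng, the standard errors can understate the spread of the compared arrays. A gene is called, and said to have risen or fallen, when the limma adjusted p is under 0.05. By this rule 7034 of 19938 genes (35.3%) were called, 3588 higher (18%) and 3446 lower (17.3%). Counts of list members are to be read against these shares. Called and at least 1 higher were 736 genes (3.69% of all 19938), and 616 (3.09% of all) were called and at least 1 lower. The balance of these turned to 638 higher and 681 lower without replicate 2 at 0 h, to 664 and 679 with quantile normalization and to 601 and 644 with array weights, and that of all calls turned to 3531 higher and 3779 lower without replicate 3 at 0 h and to 3794 and 3969 with array weights. The groups did not overlap in 8669 genes (43.5%), and the median difference over all genes was -0.09. With each array centred on its median, 61.6% of the calls were higher, against 51.0% without centring, and the median moved to -0.008. An exact permutation test of 3 against 3 arrays cannot go below p = 0.1. In cells measured in bulk, fewer cells of a type and less RNA per cell cannot be told apart. Group means under the lower quartile of all values are called near background. The true size of a difference that starts or ends there may be larger.

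**Figure D1:**
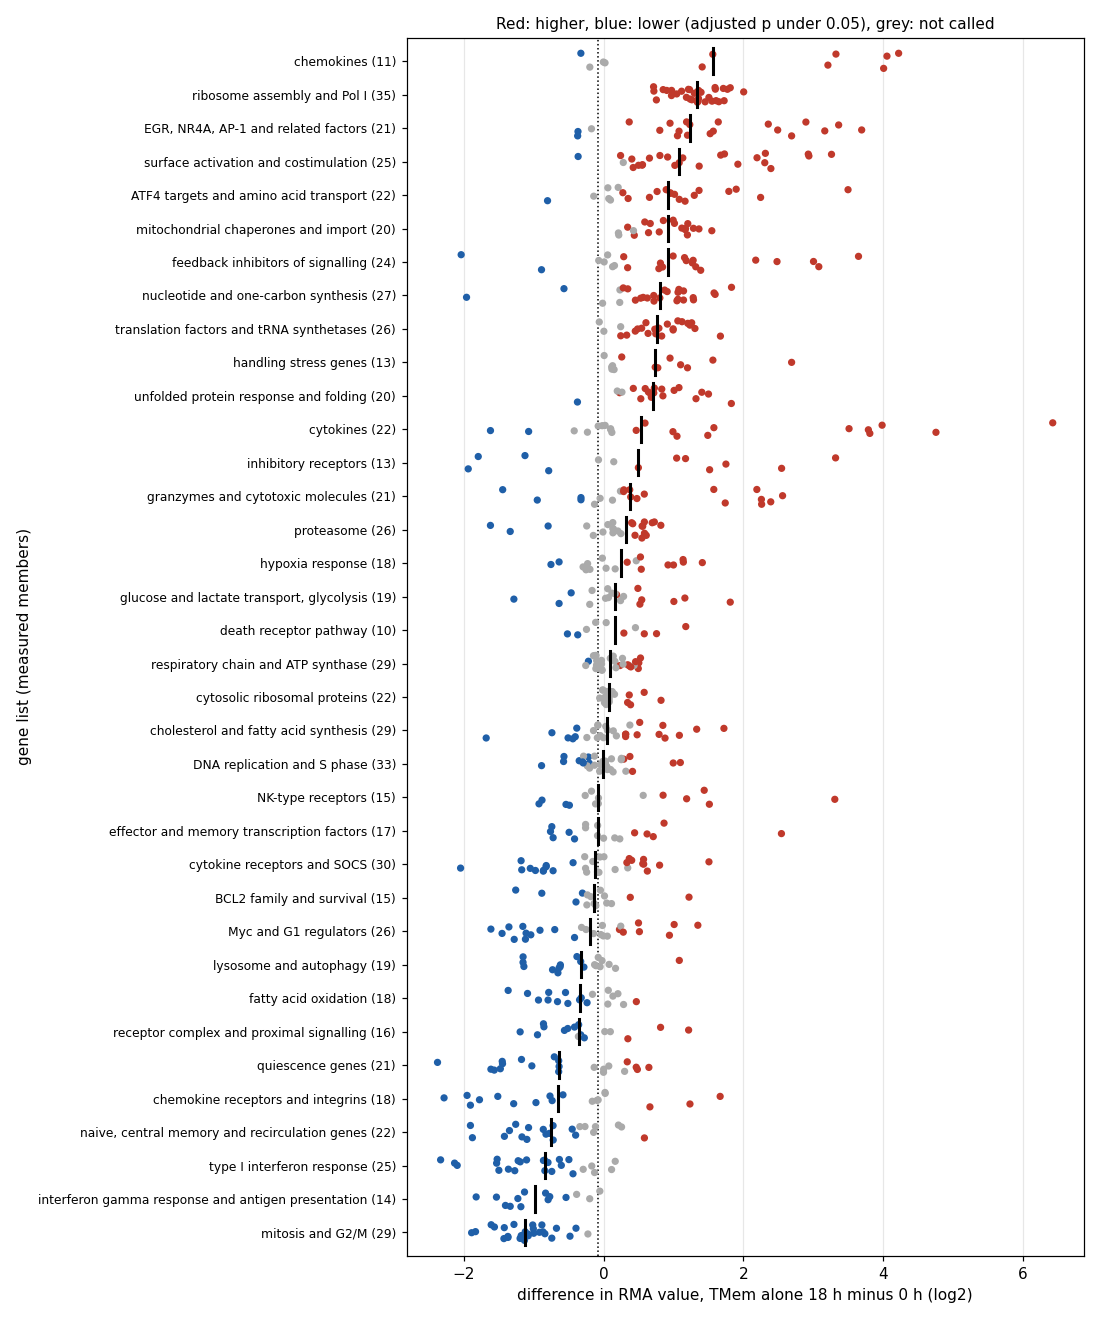
Difference between TMem alone at 18 h and 0 h (log2, x axis) for the measured members of 36 gene lists (y axis, number of members in brackets). Red points were called higher, blue points called lower and grey points not called, black bars mark list medians and the dotted line the median of all genes. The medians run from -1.12 for mitosis to 1.56 for chemokines.

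The largest rises were in cytokine genes. Of 22 measured cytokines 12 rose and 2 fell, with a median of 0.53. Il3, a growth factor of mast cells and blood progenitors, was at 11.86, 12.03 and 12.00 in TMem cells at 18 h, against 7.51, 4.50 and 4.59 at 0 h. Every array at 18 h was above every array at 0 h, and the difference of 6.43 ± 0.41 (adjusted p 4.26e-13) starts from a level near background. Il2, the T cell growth factor, was at 9.97, 9.98 and 9.98 at 18 h, against 5.89, 4.95 and 4.81 at 0 h, a difference of 4.76 ± 0.17 and a fold of at least 27. The nearest arrays of the times lay 4.07 apart. Ifng, the interferon gamma gene, was at 13.14, 13.16 and 13.16 at 18 h, against 11.36, 8.01 and 8.15 at 0 h, and Csf2, which encodes GM-CSF, was at 9.99, 10.22 and 10.10 at 18 h, against 7.80, 5.57 and 5.51 at 0 h. The times did not overlap in either, and replicate 1 at 0 h lay between the other arrays at 0 h and those at 18 h. Their differences were 3.99 ± 0.45 (adjusted p 2.56e-08) and 3.81 ± 0.31 (adjusted p 7.29e-11). Without replicate 1 at 0 h they were 5.08 for Ifng, 4.57 for Csf2 and 7.42 for Il3, and without replicate 3 at 0 h 3.47, 3.42 and 5.96. With array weights Ifng gave 2.46.

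Cytokines with no spread of this kind at 0 h rose as well. Il9, a cytokine best known from helper T cells and mast cells, was at 9.72, 10.20 and 10.19 in TMem cells at 18 h, against 6.18, 6.33 and 6.23 at 0 h, a difference of 3.79 ± 0.14 (adjusted p 1.17e-17). Il24, of the IL-10 family, was at 9.95, 10.30 and 10.19 at 18 h, against 6.80, 6.79 and 6.32 at 0 h, a difference of 3.51 ± 0.13 (adjusted p 1.17e-17). The gap between the times, from nearest array to nearest array, was 3.39 in Il9 and 3.15 in Il24. Tnf rose by 1.58, its relative Lta by 1.49, Il13 by 1.05 and Il10, from near background, by at least 0.99. Lif, a cytokine of the IL-6 family, rose by 0.59 with all arrays (adjusted p 0.0444) but gave 0.37 (adjusted p 0.247) without replicate 1 at 0 h and 0.29 without replicate 2, and its call was lost in both. The fallers were Ltb, which pairs with lymphotoxin alpha on the cell surface, and Il16. Ltb was at 9.24, 9.67 and 9.41 at 18 h, against 11.06, 10.86 and 11.27 at 0 h, a difference of -1.62 ± 0.11 (adjusted p 2.68e-12), and Il16 fell by 1.08 ± 0.08. Il4, Il6 and Il21 were near background at both times and not called, and so was Il5 (-0.42).

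**Figure D2:**
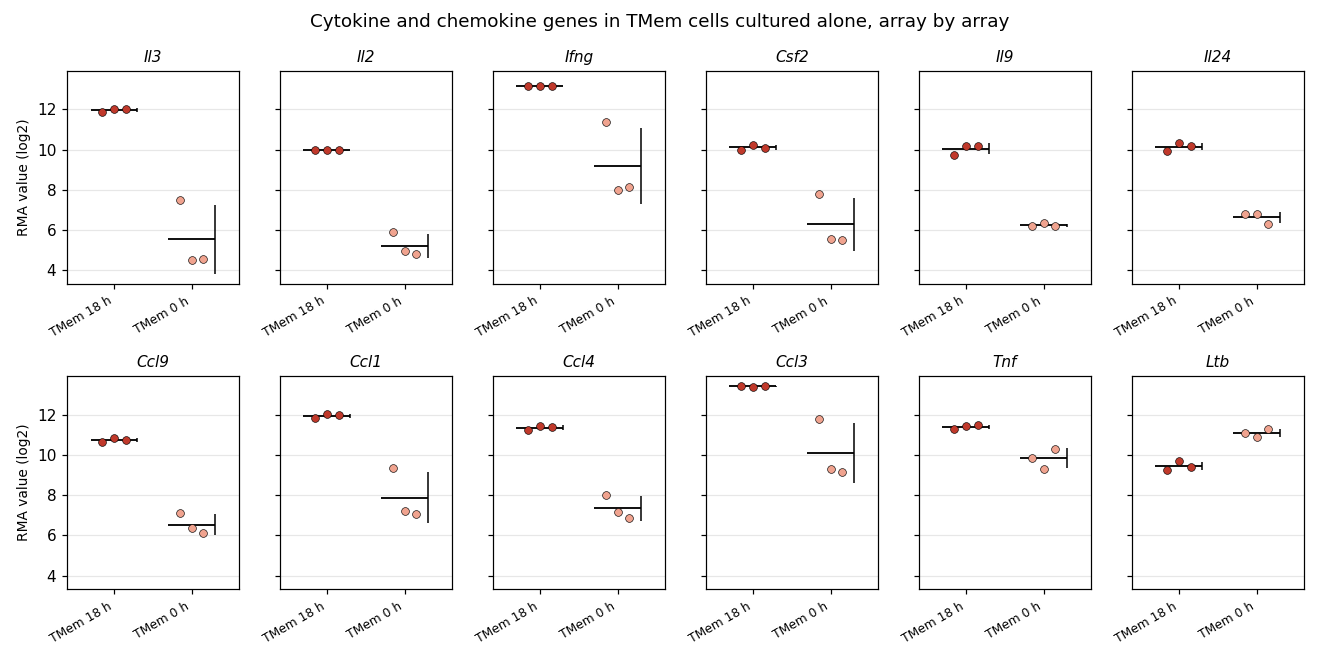
RMA values (log2, y axis) of 12 cytokine and chemokine genes in TMem cells cultured alone at 18 h (left of each panel) and 0 h (right). Points are arrays, horizontal bars means and vertical bars 1 SD. In Il3, Ifng, Csf2, Ccl1 and Ccl3, replicate 1 at 0 h lies between the other arrays at 0 h and those at 18 h, and Ltb is the gene of this set that was lower at 18 h.

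Chemokine genes had the highest median of any list, 1.56, with 7 of 11 higher and 1 lower. Ccl9, a CC chemokine that attracts myeloid cells in mice, was at 10.65, 10.84 and 10.76 in TMem cells at 18 h, against 7.11, 6.35 and 6.12 at 0 h, a difference of 4.22 ± 0.17 (adjusted p 4.11e-17). Ccl1, the ligand of CCR8, was at 11.81, 12.01 and 11.95 at 18 h, against 9.33, 7.23 and 7.04 at 0 h, and Ccl4, an inflammatory chemokine that attracts T cells and macrophages, at 11.21, 11.45 and 11.39 at 18 h, against 8.03, 7.15 and 6.84 at 0 h. No array at 18 h overlapped the arrays at 0 h, and the differences were 4.06 ± 0.30 and 4.01 ± 0.19. Ccl3, a close relative of Ccl4, was at 13.43, 13.37 and 13.40 at 18 h, against 11.79, 9.28 and 9.15 at 0 h, and Xcl1, which attracts cross-presenting dendritic cells, at 13.25, 13.29 and 13.32 at 18 h, against 11.23, 9.69 and 9.31 at 0 h. Replicate 1 at 0 h was again high in both. Their differences were 3.33 ± 0.35 and 3.21 ± 0.26, and without that array 4.18 and 3.79. With array weights Ccl3 gave 2.14. Cxcl10, a ligand of CXCR3, rose by 1.56 and Ccl5, a chemokine of memory and effector T cells, by 1.41 (0.92 without replicate 3 at 0 h), while Cxcl9, another ligand of CXCR3, fell by 0.33 ± 0.12 (adjusted p 0.0288). That call was lost without replicate 1 at 0 h (-0.29), without replicate 2 at 0 h (-0.26) and without replicate 3 at 18 h (-0.19).

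The promoters of Il9 and Ccl9 are shown because both genes rose and hold the letters TGANTCA, the core that AP-1 factors are known to bind. The 250 bases before the start were taken from RefSeq on GRCm38.p6 and were available for 15614 of the 19938 genes. Searched on both strands, the motif occurs in 26.3% of 19 cytokine promoters and 25% of 8 chemokine promoters, against 7.12% of all. The motif is not particular to lists that rose: it occurs in 27.8% of 18 promoters of the type I interferon list, whose members mostly fell, and in none of 30 promoters of ribosome assembly genes, which all rose. It reads the same on both strands, and capitals mark it. A match is a description of the sequence and not a site shown to be bound. The Il9 sequence is chr13:56482258-56482507 on the minus strand, and the Ccl9 sequence chr11:83578637-83578886 on the minus strand.
Il9: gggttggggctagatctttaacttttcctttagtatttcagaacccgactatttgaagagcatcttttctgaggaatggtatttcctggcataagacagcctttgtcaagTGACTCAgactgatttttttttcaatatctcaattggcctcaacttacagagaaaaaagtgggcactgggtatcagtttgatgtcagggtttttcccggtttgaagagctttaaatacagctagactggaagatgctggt
Ccl9: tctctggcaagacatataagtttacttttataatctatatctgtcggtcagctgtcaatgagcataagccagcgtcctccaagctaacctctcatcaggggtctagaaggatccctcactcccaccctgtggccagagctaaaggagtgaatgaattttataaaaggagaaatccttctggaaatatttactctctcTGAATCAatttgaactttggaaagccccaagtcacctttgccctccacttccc
The match lies 140 to 134 bases before the start in Il9 and 53 to 47 bases before it in Ccl9.

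Transcription factors induced by receptor signals were mostly higher at 18 h. Of 21 EGR, NR4A, AP-1 and related factors 18 rose and 2 fell, with a median of 1.23. Nr4a1, an orphan nuclear receptor widely used as a reporter of receptor signals, was at 11.12, 11.13 and 11.24 in TMem cells at 18 h, against 8.37, 7.51 and 7.53 at 0 h, a difference of 3.36 ± 0.14 (adjusted p 7.81e-17). Its relatives Nr4a3 and Nr4a2 rose by 3.69 and 2.89. Egr2, a zinc finger factor that follows NFAT, was at 10.81, 10.59 and 10.89 at 18 h, against 8.28, 7.26 and 7.26 at 0 h, a difference of 3.17 ± 0.17. The arrays at 0 h were in all of these highest in replicate 1, and none reached those at 18 h. Irf4, whose level follows the strength of receptor signals, was at 11.68, 11.57 and 11.70 at 18 h, against 9.62, 9.04 and 8.82 at 0 h, a difference of 2.49 ± 0.12 (adjusted p 1.66e-15). The AP-1 members did not move alike in size: Fosl1 rose by 2.36, Fosb by 1.57, Jun by 1.2, Junb by 1.19 and Fos by 0.95. Batf, which joins Jun partners in place of Fos, fell by 0.37 ± 0.15 (adjusted p 0.0461), a call that was lost without replicate 1 at 0 h (-0.36, adjusted p 0.0916) or replicate 2 at 0 h (-0.28), and without replicate 1 (-0.30) or replicate 3 (-0.35) at 18 h. Nfatc1 was not called (-0.18 ± 0.09).

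Inhibitors that feed back on signalling were higher too. Among them 17 of 24 rose and 2 fell, with a median of 0.92. Rgs16, a regulator of G protein signals, was at 11.90, 11.91 and 11.91 in TMem cells at 18 h, against 9.22, 8.06 and 7.49 at 0 h, a difference of 3.65 ± 0.21. Spry1, an inhibitor of the Ras and ERK pathway, was at 10.86, 10.91 and 10.76 at 18 h, against 7.83, 7.75 and 7.95 at 0 h, a difference of 3.00 ± 0.10 (adjusted p 4.54e-19). No array at 18 h came closer to those at 0 h than 2.81. Dusp4, a phosphatase of MAP kinases, rose by 2.48, and the NF-kB inhibitors Nfkbia, Nfkbib and Tnfaip3 rose by 1.39, 1.32 and 1.18. Dgka, the diacylglycerol kinase that removes a second messenger of the receptor, went the other way. It was at 10.50, 10.50 and 10.62 at 18 h, against 12.52, 12.55 and 12.69 at 0 h, a difference of -2.04 ± 0.09 (adjusted p 2.21e-16). Of the receptor complex and proximal signalling genes 10 of 16 fell and 3 rose. Cd3g and Cd3d, chains of the CD3 complex, fell (-0.86 ± 0.07 and -0.86 ± 0.11), the adhesion receptor Cd2 fell by 0.95 ± 0.07, Cd28 fell by 0.56 ± 0.10 and Plcg1, the phospholipase downstream of the receptor, fell by 1.2 ± 0.13. The risers were Cd6 (1.22) and Cd5 (0.81), surface proteins that restrain receptor signals, and Lcp2 (0.34), an adaptor whose call was lost without replicate 3 at 0 h (0.30) and without replicate 1 (0.33) or 3 (0.29) at 18 h. Rasgrp2, an exchange factor for Rap1 outside that list, was at 6.70, 6.65 and 6.71 at 18 h, against 9.71, 9.61 and 10.01 at 0 h, a difference of -3.09 ± 0.09 (adjusted p 3.75e-20).

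Surface molecules of activation and costimulation rose in 23 of 25 cases, with a median of 1.08. Cd200, a ligand that restrains myeloid cells, was at 9.34, 9.35 and 9.37 in TMem cells at 18 h, against 6.16, 6.31 and 6.78 at 0 h, and Cd83, a marker of activated lymphocytes and dendritic cells, was at 9.99, 10.22 and 9.96 at 18 h, against 7.42, 6.87 and 7.10 at 0 h. The groups were well apart in both, with differences of 2.94 ± 0.11 and 2.93 ± 0.13. The receptor OX40 (Tnfrsf4) rose by 2.31 and its ligand Tnfsf4 by 2.39. Tnfrsf9, the costimulatory receptor 4-1BB, was at 12.49, 12.53 and 12.54 at 18 h, against 11.24, 10.76 and 9.81 at 0 h, a difference of 1.92 ± 0.18. Tnfsf11, the ligand RANKL, rose by 2.31. Cd44, an adhesion receptor and memory marker, rose by 2.19 ± 0.23, and by 1.72 without replicate 3 at 0 h, which held little of it. Cd69, an early activation marker that keeps cells in tissue, was already at 10.16, 9.60 and 10.59 at 0 h and rose by 1.08 ± 0.14. Cd86 was the member that fell (-0.37 ± 0.10), and Cd40lg was near background at both times.

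Inhibitory receptors moved both ways, with 7 of 13 higher and 4 lower. Pdcd1, which encodes PD-1, was at 9.65, 9.88 and 9.98 in TMem cells at 18 h, against 7.53, 7.17 and 7.18 at 0 h, a difference of 2.55 ± 0.11 (adjusted p 3.17e-16). Havcr2, which encodes TIM-3, was at 9.92, 9.91 and 10.12 at 18 h, against 7.70, 6.73 and 5.57 at 0 h, a difference of 3.32 ± 0.26, and 2.77 without replicate 3 at 0 h. All arrays at 18 h were above all arrays at 0 h in both genes. Lag3 rose by 1.75 ± 0.08, Tigit by 1.52 ± 0.21, and the PD-1 ligands Cd274 and Pdcd1lg2 by 1.04 and 1.17. Ctla4, the inhibitory receptor for CD80 and CD86, was at 8.0, 7.97 and 7.99 at 18 h, against 9.57, 9.54 and 10.23 at 0 h, a difference of -1.80 ± 0.14 (adjusted p 1.62e-11). Entpd1, the ectoenzyme CD39, was at 6.58, 6.81 and 6.61 at 18 h, against 8.80, 8.72 and 8.30 at 0 h, a difference of -1.94 ± 0.12. Both were lower at 18 h without overlap. Nt5e, which follows CD39 in the breakdown of extracellular ATP, fell by 0.79 ± 0.09, and Cd96, which shares a ligand with Tigit, fell by 1.13 ± 0.09.

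Of 21 genes of granzymes and cytotoxic molecules 13 rose and 4 fell, with a median of 0.37. Granzyme genes are close relatives, and their probe sets may share signal. Gzmb, the main granzyme of killer cells, was at 13.17, 13.15 and 13.14 in TMem cells at 18 h, against 12.91, 12.64 and 12.80 at 0 h, and rose by 0.37 ± 0.08 (adjusted p 4.84e-04). Prf1, the pore-forming protein that lets granzymes in, was at 11.10, 10.95 and 11.10 at 18 h, against 9.14, 9.07 and 8.16 at 0 h, a difference of 2.26 ± 0.14 (adjusted p 5.64e-13). The nearest arrays of the times lay 1.81 apart in Prf1 and 0.23 apart in Gzmb. Gzmd, from near background, rose by at least 2.19 ± 0.19, Gzme by 1.74 ± 0.14 and Gzmc by 1.58 ± 0.22 (0.95 with array weights). Gzmk, a granzyme of memory cells with a trypsin-like activity, was at 6.73, 6.76 and 6.67 at 18 h, against 8.63, 8.65 and 7.24 at 0 h, a difference of -1.45 ± 0.21, and Gzma was not called (0.24 ± 0.21). The inhibitors that protect the cell from its own granzymes rose as well: Serpinb9b by 2.56 ± 0.11, Serpinb6b by 2.39 ± 0.24 and Serpinb9 by 2.26 ± 0.16. Fasl, the death ligand, was called with all arrays (0.58, adjusted p 0.031) but gave 0.27 (adjusted p 0.284) without replicate 3 at 0 h, and its call was lost without any other array of the times but replicate 1 at 0 h, at 0.56 to 0.61. Receptors of the NK type were mixed, with 5 of 15 higher and 4 lower. Without replicate 1 at 0 h they were 6 higher and 3 lower, and without replicate 3 at 0 h 4 higher and 6 lower. Crtam, an adhesion molecule of activated killer cells, was at 11.55, 11.63 and 11.60 at 18 h, against 8.83, 8.12 and 7.91 at 0 h, a difference of 3.31 ± 0.15, while Klrd1, the CD94 chain, fell by 0.93 ± 0.20 (-0.61 without replicate 1 at 0 h).

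Transcription factors of effector and memory fate showed 5 rises and 5 falls among 17. Zeb2, a repressor that promotes terminal effector cells, was at 9.50, 9.20 and 9.52 in TMem cells at 18 h, against 7.22, 7.06 and 6.31 at 0 h, a difference of 2.54 ± 0.15 (adjusted p 7.01e-14). The gap between the times, from nearest array to nearest array, was 1.98. Tbx21, which encodes T-bet, rose by 0.86 ± 0.14 (0.53 without replicate 3 at 0 h), Bhlhe40, a factor that supports cytokine production, by 0.71 ± 0.12 (0.42 with array weights) and Eomes, a T-box factor of memory, by 0.44 ± 0.09. Ikzf3, of the Ikaros family, fell by 0.76 ± 0.10, Tox, a factor of exhausted cells, fell by 0.74 ± 0.11, Runx3, which fixes CD8 identity, fell by 0.73 ± 0.10 and Ikzf1, Ikaros itself, fell by 0.50 ± 0.11. Prdm1, which encodes BLIMP-1, was not called (0.23 ± 0.16), but was without replicate 1 at 0 h (0.50). Id2, an inhibitor of E proteins, was not called (-0.09 ± 0.22).

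Receptors for cytokines and their regulators counted 9 higher and 11 lower of 30. Stat5a, the factor that IL-2 activates, was at 10.62, 10.49 and 10.54 in TMem cells at 18 h, against 9.06, 8.92 and 9.14 at 0 h, a difference of 1.51 ± 0.10. Il2ra, the high-affinity chain of the IL-2 receptor, was already at 12.47, 12.27 and 12.64 at 0 h and rose by 0.36 ± 0.08. The interferon receptors moved the other way. Ifngr1, the ligand-binding chain for interferon gamma, was at 9.81, 9.97 and 9.89 at 18 h, against 12.18, 11.98 and 11.66 at 0 h, a difference of -2.05 ± 0.09 (adjusted p 6.13e-16). Ifngr2 fell by 0.98 ± 0.22, and -0.45 was left without replicate 3 at 0 h, where it was high. Ifnar1 and Ifnar2, the chains for type I interferon, fell (-0.86 ± 0.08 and -1.18 ± 0.07). Il10rb fell by 1.18 ± 0.07, Tgfbr2 fell by 0.82 ± 0.08 and Il7r, the survival receptor of resting memory cells, fell by 0.87 ± 0.16. Socs2, a feedback inhibitor of cytokine signals, fell by 1.05 ± 0.10, and Cish, an inhibitor of the same family, rose by 0.57 ± 0.10.

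Genes of naive and central memory cells and of recirculation were mostly lower at 18 h, 15 of 22, with 1 higher and a median of -0.75. S1pr1, the receptor that lets T cells leave lymphoid organs, was at 7.52, 7.45 and 7.53 in TMem cells at 18 h, against 9.29, 9.48 and 9.38 at 0 h, a difference of -1.88 ± 0.08 (adjusted p 3.26e-16). Klf2, the factor that maintains S1pr1, fell by 1.08 ± 0.13. Lef1, a factor of stem-like T cells, was at 9.45, 9.35 and 9.45 at 18 h, against 10.33, 10.50 and 10.72 at 0 h, a difference of -1.10 ± 0.09. Cxcr3, the receptor that guides cells to inflamed tissue, was at 9.07, 8.94 and 9.20 at 18 h, against 11.19, 11.32 and 10.43 at 0 h, a difference of -1.91 ± 0.14. None of these overlapped between the times. Ccr7, the lymph node homing receptor, was the member that rose, by 0.58 ± 0.12. Chemokine receptors and integrins fell in 10 of 18 cases and rose in 3. Itgb7, the beta chain of gut-homing integrins, fell by 2.29 ± 0.13, Cxcr4 fell by 1.52 ± 0.11 and Selplg, a selectin ligand, fell by 1.29 ± 0.08. Ccr2 and Itgae were lower too (-1.96 and -1.78), with replicate 3 at 0 h far from the other arrays in both, and gave -2.68 and -1.14 without it. Itgav, an integrin chain that activates TGF-beta, rose by 1.67 ± 0.15 and Ccr4 by 1.23 ± 0.22.

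Quiescence genes were lower in 12 of 21 cases and higher in 4, with a median of -0.65. Pik3ip1, an inhibitor of PI3 kinase, was at 7.44, 7.53 and 7.56 in TMem cells at 18 h, against 9.63, 9.94 and 10.10 at 0 h, a difference of -2.38 ± 0.10 (adjusted p 1.47e-16). Cdkn1b, the cell cycle inhibitor p27, was at 8.07, 7.85 and 8.03 at 18 h, against 9.64, 9.49 and 9.67 at 0 h, a difference of -1.62 ± 0.08. No array at 18 h came closer to those at 0 h than 2.08 in Pik3ip1 and 1.41 in Cdkn1b. Txnip, an inhibitor of glucose uptake, fell by 1.57 ± 0.10, Ypel3 fell by 1.48 ± 0.08, Sesn1, a stress-induced brake on mTORC1, fell by 1.45 ± 0.09 and Rbl2, a pocket protein of resting cells, fell by 1.03 ± 0.11. Slfn2, needed to keep T cells at rest in mice, rose by 0.65 ± 0.13, while its relative Slfn1 fell by 1.45 ± 0.13.

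Cell cycle genes did not move as a block. Among Myc and G1 regulators 7 of 26 rose and 11 fell. Myc, the growth factor-induced regulator of metabolism, was at 12.77, 12.48 and 12.66 in TMem cells at 18 h, against 11.33, 11.15 and 11.39 at 0 h, a difference of 1.35 ± 0.11 (adjusted p 3.12e-11). Ccnd2, the D-type cyclin induced on stimulation, rose by 1.01 ± 0.12 and Cdc25a, a phosphatase for entry into S phase, by 0.94 ± 0.08, whereas Ccnd3, another D-type cyclin, fell by 1.28 ± 0.08. The Myc antagonists Mxd4, Mxd3 and Mxd1 fell (-1.16 ± 0.10, -1.11 ± 0.11 and -0.91 ± 0.09). Of 33 genes of DNA replication 20 were not called, 5 rose and 8 fell, and the median was -0.01. Without replicate 1 at 0 h 7 rose, 5 fell and the median was 0.029. Mcm2, a subunit of the replicative helicase, was at 11.16, 11.15 and 11.17 at 18 h, against 11.17, 11.15 and 11.03 at 0 h, and Pcna, the replication clamp, at 12.28, 12.41 and 12.34 at 18 h, against 12.44, 12.18 and 12.45 at 0 h. The arrays of both genes overlapped. Tk1, the thymidine kinase, fell by 0.89 ± 0.10.

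Mitotic genes were the list with the lowest median, -1.12: 28 of 29 fell, 20 of them by at least 1, and none rose. Ccnb2, a mitotic cyclin, was at 10.68, 10.82 and 10.69 in TMem cells at 18 h, against 12.33, 12.36 and 12.19 at 0 h, a difference of -1.57 ± 0.08 (adjusted p 2.34e-15). Nusap1, a spindle protein, was at 8.87, 8.97 and 9.11 at 18 h, against 11.00, 10.68 and 10.94 at 0 h, a difference of -1.89 ± 0.11, and Kif11, the kinesin that separates the spindle poles, at 9.62, 9.48 and 9.65 at 18 h, against 11.13, 10.84 and 11.08 at 0 h, a difference of -1.43 ± 0.09. The nearest arrays of the times lay 1.38 apart in Ccnb2, 1.58 in Nusap1 and 1.19 in Kif11. Cdc25b, a phosphatase that starts mitosis, fell by 1.84 ± 0.10, Plk1, the polo-like kinase, fell by 1.29 ± 0.09 and Foxm1, the factor that drives this programme, fell by 1.08 ± 0.08. Mki67, the proliferation marker, was at 10.28, 9.62 and 10.20 at 18 h, against 11.38, 11.21 and 10.91 at 0 h, so that unstimulated TMem cells held more of it than stimulated ones. Cdc20, an activator of the anaphase complex, was the member not called (-0.23 ± 0.10, adjusted p 0.0964), although it was without replicate 3 at 0 h (-0.29). Neil3, a DNA repair enzyme, and Depdc1b, outside the list, were among the largest falls (-2.23 and -2.12).

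Promoters of Ccnb2 and Kif11 are shown because both genes fell and hold CCAAT boxes, which mitotic promoters are known for. CCAAT or its reverse ATTGG occurs in the 250 bases before the start of 82.6% of 23 mitotic genes, against 38.8% of all. It also occurs in 82.4% of 17 promoters of the unfolded protein response list and 76.2% of 21 of the cholesterol and fatty acid list, lists in which more members rose than fell. TTTGAA, the cell cycle homology element, occurs on either strand in 39.1% of the same 23 genes, against 15.7% of all. This too is not particular to the mitotic list. The element occurs in 50% of 6 promoters of CD4 and regulatory T cell markers, 37.5% of 8 of the death receptor list and 36.4% of 11 of inhibitory receptors. Most other lists had lower shares. Capitals mark CCAAT or ATTGG. The Ccnb2 sequence is chr9:70421555-70421804 on the minus strand, and the Kif11 sequence chr19:37376132-37376381 on the plus strand.
Ccnb2: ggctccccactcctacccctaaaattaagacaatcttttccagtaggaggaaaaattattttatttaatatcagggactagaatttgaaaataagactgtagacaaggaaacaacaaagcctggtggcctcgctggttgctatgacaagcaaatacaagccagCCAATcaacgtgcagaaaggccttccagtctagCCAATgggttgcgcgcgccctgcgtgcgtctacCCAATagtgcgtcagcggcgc
Kif11: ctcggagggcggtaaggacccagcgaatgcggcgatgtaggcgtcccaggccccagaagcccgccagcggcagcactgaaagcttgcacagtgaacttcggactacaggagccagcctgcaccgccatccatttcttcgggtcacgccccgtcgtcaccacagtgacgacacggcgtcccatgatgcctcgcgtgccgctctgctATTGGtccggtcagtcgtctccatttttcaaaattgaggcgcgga
Ccnb2 holds 3 matches, beginning 87, 54 and 21 bases before the start, and Kif11 holds 1, beginning 45 bases before it.

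Ribosome assembly was the list in which every measured member moved the same way: 35 of 35 rose, 27 of them by at least 1, with a median of 1.34. Rrp9, which joins the U3 particle that cuts ribosomal RNA, was at 10.68, 10.83 and 10.88 in TMem cells at 18 h, against 8.88, 8.76 and 8.75 at 0 h, a difference of 2.00 ± 0.10 (adjusted p 1.57e-15). Polr1b, a subunit of RNA polymerase I, was at 11.34, 11.09 and 11.36 at 18 h, against 9.69, 9.37 and 9.29 at 0 h, a difference of 1.81 ± 0.12. The gap between the times, from nearest array to nearest array, was 1.80 in Rrp9 and 1.40 in Polr1b. Abundant nucleolar proteins rose too, Npm1 by 0.99 ± 0.09, Ncl by 0.97 ± 0.11 and Nop56 by 0.90 ± 0.06. The smallest rises of the list were those of Polr1e (0.72) and Polr1c (0.71). Of 22 ribosomal protein genes themselves 5 were called higher, none lower and 17 were not called, with a median of 0.07. Over all genes 18% were called higher and 17.3% lower.

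Other supplies of protein synthesis were mostly higher. Of all, 23 of 26 translation factors and tRNA synthetases rose and none fell, with a median of 0.76. Eif4e, the cap-binding protein, was at 10.48, 10.67 and 10.66 in TMem cells at 18 h, against 9.47, 9.02 and 9.41 at 0 h, a difference of 1.31 ± 0.13, and Lars, the leucine tRNA synthetase, rose by 1.23 ± 0.09. Likewise 22 of 27 genes of nucleotide and one-carbon synthesis rose. Ctps, the CTP synthase that activated lymphocytes depend on, was at 10.05, 10.14 and 10.12 at 18 h, against 8.52, 7.95 and 8.36 at 0 h, a difference of 1.83 ± 0.12 (adjusted p 9.90e-13). Its relative Ctps2 was at 7.86, 8.0 and 8.0 at 18 h, against 9.88, 9.85 and 10.03 at 0 h, a difference of -1.97 ± 0.07 (adjusted p 8.46e-18). The 2 genes for the same enzyme step thus moved in opposite directions, with no overlap of arrays in either. Srm and Odc1, enzymes of polyamine synthesis, rose by 1.59 ± 0.10 and 1.28 ± 0.18, and Shmt1 and Shmt2, which feed one-carbon units, by 1.58 ± 0.10 and 1.28 ± 0.09. In protein folding 17 of 20 genes of folding and the unfolded protein response rose, led by Hyou1 (1.83 ± 0.10) and Dnajb9 (1.5 ± 0.14), both of the endoplasmic reticulum. Of mitochondrial chaperones and import genes 17 of 20 rose, among them Lonp1, a matrix protease, by 1.36 ± 0.10 and Hspd1, the chaperonin, by 1.2 ± 0.08. Respiratory chain genes counted 8 higher and 1 lower, with 20 of 29 members not called.

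Targets of ATF4, the factor of the amino acid response, and amino acid transporters rose in 16 of 22 cases and fell in 1. Cth, which makes cysteine from cystathionine, was at 9.46, 9.67 and 9.46 in TMem cells at 18 h, against 6.17, 6.14 and 5.79 at 0 h, a difference of 3.50 ± 0.10 (adjusted p 3.75e-20). No array at 18 h came closer to those at 0 h than 3.29. Slc7a11, the cystine transporter, was at 6.14, 6.19 and 6.44 at 18 h, against 5.10, 5.11 and 4.68 at 0 h, a difference of at least 1.30 ± 0.14 from near background. Slc7a3, a carrier of cationic amino acids, rose by 2.25 ± 0.13, Slc6a9, a glycine carrier, by 1.79 ± 0.08 and Slc7a5, the carrier of large neutral amino acids, by 1.01 ± 0.13. Asns, the asparagine synthetase, was at 12.29, 12.34 and 12.32 at 18 h, against 11.27, 11.00 and 8.99 at 0 h, a difference of 1.90 ± 0.29, and 1.18 without replicate 3 at 0 h. Atf4 itself rose by 0.76 ± 0.09, Ddit3 was not called (0.06 ± 0.18) and Ddit4, an inhibitor of mTORC1, fell by 0.81 ± 0.17.

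Promoters of Asns and Slc7a11 are shown because both genes rose and hold the letters TGATGNAA, the composite element that ATF4 is known to bind. On either strand it occurs in 23.5% of 17 promoters of this list, against 3.14% of all, and capitals mark it. The element is not particular to this list. It occurs in 18.8% of 16 promoters of translation factors and tRNA synthetases, which mostly rose too. Shares were 11.1% of 9 promoters of NK-type receptors, which moved both ways, and 10% of 10 of handling stress genes. The Asns sequence is chr6:7693210-7693459 on the minus strand, and the Slc7a11 sequence chr3:50443614-50443863 on the minus strand.
Asns: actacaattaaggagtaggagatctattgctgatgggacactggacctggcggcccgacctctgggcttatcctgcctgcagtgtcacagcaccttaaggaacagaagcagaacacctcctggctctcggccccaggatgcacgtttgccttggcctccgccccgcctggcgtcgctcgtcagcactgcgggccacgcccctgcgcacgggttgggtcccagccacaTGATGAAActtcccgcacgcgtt
Slc7a11: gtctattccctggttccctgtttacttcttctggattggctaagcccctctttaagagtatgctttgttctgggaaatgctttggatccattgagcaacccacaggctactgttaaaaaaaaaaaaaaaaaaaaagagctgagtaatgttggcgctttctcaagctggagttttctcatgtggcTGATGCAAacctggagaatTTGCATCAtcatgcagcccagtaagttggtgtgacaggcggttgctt
Asns holds 1 match, 23 to 16 bases before the start, and Slc7a11 holds 2, beginning 66 and 47 bases before it and facing opposite ways.

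Energy metabolism was less uniform. Of 19 genes of glucose and lactate transport and glycolysis 7 rose, 3 fell and 9 were not called. Hk2, the inducible hexokinase, was at 9.71, 9.71 and 9.55 in TMem cells at 18 h, against 8.34, 7.91 and 7.29 at 0 h, a difference of 1.81 ± 0.15 (adjusted p 1.58e-10). Slc16a1, a lactate carrier, rose by 1.16 ± 0.08 and Slc2a1, the glucose transporter GLUT1, by 0.54 ± 0.13 (0.32 without replicate 3 at 0 h). Aldoc, an aldolase, fell by 1.29 ± 0.17. Fatty acid oxidation genes fell in 11 of 18 cases and rose in 1. Cpt1a, the carrier that admits fatty acids to mitochondria, was at 8.50, 8.52 and 8.72 at 18 h, against 10.04, 9.84 and 9.97 at 0 h, a difference of -1.37 ± 0.18. The nearest arrays of the times lay 1.12 apart. Genes of cholesterol and fatty acid synthesis rose in 11 and fell in 6 of 29 cases. Hsd17b7, of cholesterol synthesis, and Acaca, the rate-limiting enzyme of fatty acid synthesis, rose by 1.33 ± 0.12 and 1.08 ± 0.14, and Abcg1, a sterol exporter, fell by 1.68 ± 0.11. Idi2, an isopentenyl diphosphate isomerase outside the list, was at 9.26, 9.52 and 9.52 at 18 h, against 5.29, 4.66 and 4.60 at 0 h, a difference of at least 4.58 ± 0.14 from near background. In the hypoxia list 8 of 18 rose and 2 fell (6 and 4 without replicate 3 at 0 h), and Vegfa, the vascular growth factor, rose by 1.14 ± 0.09.

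Interferon response genes were lower at 18 h. Of 25 genes of the type I list 20 fell and none rose, with a median of -0.85. Of 14 genes of the interferon gamma response and antigen presentation 11 fell and none rose, with a median of -0.98. Ddx58, the RNA sensor RIG-I, was at 8.23, 8.42 and 8.48 in TMem cells at 18 h, against 10.72, 10.47 and 10.96 at 0 h, a difference of -2.34 ± 0.15 (adjusted p 8.88e-13). Rtp4, an interferon-induced chaperone, was at 7.32, 7.41 and 7.55 at 18 h, against 9.50, 9.23 and 9.96 at 0 h, a difference of -2.14 ± 0.13. The gap between the times, from nearest array to nearest array, was 1.98 in Ddx58 and 1.68 in Rtp4. Irf7 and Irf9, factors of the type I response, fell (-1.23 ± 0.09 and -0.84 ± 0.07), and Stat2, which joins Irf9 to bind the response element, fell by 1.2 ± 0.13. Irf1, the main factor of the interferon gamma response, was at 9.35, 9.47 and 9.35 at 18 h, against 10.39, 9.97 and 11.21 at 0 h, a difference of -1.14 ± 0.16. The guanylate-binding protein Gbp4 was at 9.68, 9.56 and 9.82 at 18 h, against 11.36, 11.07 and 12.10 at 0 h, a difference of -1.83 ± 0.18, and the GTPase Iigp1 was at 6.77, 6.78 and 6.88 at 18 h, against 8.03, 7.46 and 9.55 at 0 h, a difference of -1.54 ± 0.27. Replicate 3 was the highest array at 0 h in these 3 genes, and without it the differences were -0.79, -1.53 and -0.94. Nlrc5, which drives MHC class I genes, fell by 1.23 ± 0.17, the peptide carriers Tap1 and Tap2 fell (-0.77 ± 0.10 and -0.83 ± 0.09), and B2m, the light chain of MHC class I, was not called (-0.06 ± 0.07). Ifng itself rose over the same time, and its receptor chain Ifngr1 fell, as given above.

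Proteasome genes moved both ways. The 3 subunits that replace standard ones in the immunoproteasome fell, with differences of -1.62 ± 0.15 for Psmb10, -1.34 ± 0.10 for Psmb9 and -0.80 ± 0.12 for Psmb8. No other member of the list fell, out of 26, and 13 others rose. Psmb9 was at 10.08, 10.36 and 10.18 in TMem cells at 18 h, against 11.42, 11.41 and 11.79 at 0 h, while Psmb6, the standard subunit it replaces, was at 10.82, 11.05 and 10.89 at 18 h, against 10.40, 10.28 and 10.45 at 0 h. The arrays overlapped in neither, and Psmb6 rose by 0.55 ± 0.11. Psmb7, which Psmb10 replaces, rose by 0.61 ± 0.15, and Psmb5, which Psmb8 replaces, was not called (0.13 ± 0.11).

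Promoters of Stat2, Irgm1 and Oas3 are shown because these genes fell and hold the letters TTTC, any 2 bases and TTTC again, the core of the interferon-stimulated response element. On either strand (the reverse reads GAAA, any 2 bases and GAAA) it occurs in 50% of 18 promoters of the type I list and 44.4% of 9 promoters of the interferon gamma list, against 3.4% of all. It also occurs in 20% of 20 promoters of granzymes and cytotoxic molecules, a list in which more members rose than fell. Shares were 22.2% of 9 promoters of B cell markers and 16.7% of 18 of cytosolic ribosomal proteins. Oas3 makes oligoadenylates that start the decay of viral RNA, and Irgm1 is a GTPase against bacteria inside the cell. Capitals mark the matches. The Stat2 sequence is chr10:128270248-128270497 on the plus strand, the Irgm1 sequence chr11:48871421-48871670 on the minus strand and the Oas3 sequence chr5:120777660-120777909 on the minus strand.
Stat2: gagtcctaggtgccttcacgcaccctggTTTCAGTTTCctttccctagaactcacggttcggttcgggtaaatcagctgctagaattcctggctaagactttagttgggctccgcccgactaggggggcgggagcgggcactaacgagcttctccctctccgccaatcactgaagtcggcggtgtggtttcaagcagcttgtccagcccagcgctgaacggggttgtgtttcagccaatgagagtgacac
Irgm1: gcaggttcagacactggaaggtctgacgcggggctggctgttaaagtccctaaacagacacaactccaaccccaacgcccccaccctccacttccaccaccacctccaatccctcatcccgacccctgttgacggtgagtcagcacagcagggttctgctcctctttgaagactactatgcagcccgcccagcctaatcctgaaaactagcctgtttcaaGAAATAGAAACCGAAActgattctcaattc
Oas3: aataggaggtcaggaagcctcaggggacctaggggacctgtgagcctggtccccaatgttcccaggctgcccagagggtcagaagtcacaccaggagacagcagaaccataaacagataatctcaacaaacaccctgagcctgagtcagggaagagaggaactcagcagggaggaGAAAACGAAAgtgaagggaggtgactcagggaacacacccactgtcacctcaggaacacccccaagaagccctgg
Stat2 holds 1 match 222 to 213 bases before the start, Irgm1 holds 2 that overlap, from 30 to 15 bases before it, and Oas3 holds 1 from 75 to 66 bases before it. Oas3 was at 8.07, 7.92 and 8.16 in TMem cells at 18 h, against 9.64, 9.44 and 9.65 at 0 h and Irgm1 at 10.24, 10.34 and 10.26 at 18 h, against 11.31, 10.93 and 12.16 at 0 h, differences of -1.53 ± 0.11 and -1.19 ± 0.16.

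Survival genes moved in opposite ways. Bcl2, the survival factor of resting T cells, was at 9.94, 9.61 and 9.89 in TMem cells at 18 h, against 10.95, 10.97 and 11.31 at 0 h, a difference of -1.26 ± 0.14 (adjusted p 2.12e-08). Bcl2l1, which encodes the survival factor BCL-XL of activated cells, was at 9.38, 9.31 and 9.33 at 18 h, against 8.21, 8.17 and 7.99 at 0 h, a difference of 1.22 ± 0.07 (adjusted p 4.97e-14). Neither overlapped between the times. Bcl2l11, the death-promoting factor BIM, fell by 0.89 ± 0.12, Mcl1 was not called (-0.14 ± 0.10), and 9 of the 15 members in all were not called. Lysosome and autophagy genes fell in 11 of 19 cases, with Ctsd, a lysosomal protease, at -1.14 ± 0.09 and Npc2, a carrier of lysosomal cholesterol, at -1.16 ± 0.10 relative to 0 h. Gabarapl1, of the autophagy membrane, was the member that rose (1.08 ± 0.11). Of death receptor genes 4 of 10 rose and 2 fell, with Tnfrsf10b, a receptor for TRAIL, at 1.17 ± 0.10 and Casp8, the caspase it activates, at -0.52 ± 0.08. Genes of stress during handling rose in 8 of 13 cases, with a median of 0.74. Jun and Fos of this list are also induced by receptor signals, and the part of cell handling in them was not tested.

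Several of the 40 largest rises and 40 largest falls belong to no list. Il1a, the alarm cytokine interleukin 1 alpha, was at 8.78, 8.87 and 8.84 in TMem cells at 18 h, against 4.39, 4.79 and 4.56 at 0 h, a difference of at least 4.25 ± 0.12 from near background (adjusted p 3.75e-20). Plk2, a polo-like kinase of stressed and activated cells, was at 10.65, 10.63 and 10.57 at 18 h, against 6.69, 5.77 and 5.98 at 0 h, a difference of 4.47 ± 0.16. Penk, the precursor of enkephalin peptides, was at 10.45, 10.41 and 10.48 at 18 h, against 7.47, 6.03 and 5.74 at 0 h, a difference of 4.04 ± 0.25. No array at 18 h came closer to those at 0 h than 3.99 in Il1a, 3.88 in Plk2 and 2.94 in Penk. Ncs1, a calcium sensor, rose by 3.95 ± 0.11, Ceacam1, an adhesion molecule with inhibitory motifs, by 3.30 ± 0.15, Olr1, a receptor for oxidized lipoprotein, from near background by at least 3.41 ± 0.11 and Il23a, the p19 subunit of IL-23, by 2.68 ± 0.11. Among the falls, Fgl2, a fibrinogen-like protein that T cells secrete, was at 6.72, 6.87 and 6.75 at 18 h, against 9.15, 8.81 and 9.22 at 0 h, a difference of -2.28 ± 0.11. Smpdl3a, a phosphodiesterase, fell by 2.81 ± 0.10, Cd7, a surface molecule of T cells, fell by 2.88 ± 0.18, Gimap7, a lymphocyte GTPase, fell by 2.47 ± 0.15 and Sla2, an adaptor that dampens receptor signals, fell by 2.41 ± 0.10. H2az2, a histone variant gene, fell by 2.58 ± 0.11.

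The mean level of all genes was 7.304 to 7.365 in these arrays. Marker lists of other cell types had mean levels below this at both times, some only slightly, and some members were high at 0 h. The exception was the CD4 and regulatory T cell list, at 7.57 in replicate 3 at 0 h. Ms4a1, the B cell gene CD20, was near background in all 6 arrays, at 4.72, 4.50 and 5.04 in TMem cells at 18 h, against 4.82, 4.93 and 4.91 at 0 h. Of 25 myeloid markers 1 fell and none rose, and their mean level per array was 5.94 to 6.03 at 18 h and 5.97 to 6.28 at 0 h. Mast cell and basophil markers fell in 6 of 12 cases, with a mean level of 5.69 to 5.78 at 18 h and 6.25 to 6.51 at 0 h. Cpa3, the mast cell carboxypeptidase, had the largest fall of all genes: it was at 5.92, 5.63 and 6.28 at 18 h, against 9.30, 8.74 and 10.21 at 0 h, a difference of -3.48 ± 0.27 (adjusted p 3.57e-11). Fcer1a, the IgE receptor chain, was at 4.78, 4.64 and 4.40 at 18 h, against 5.61, 5.17 and 6.77 at 0 h, near background at 18 h (-1.25, and -0.79 without replicate 3 at 0 h), while Mcpt4 and Ms4a2, defining genes of mast cells, were near background at both times. Erythroid and platelet markers fell in 4 of 7 cases, with a mean level of 6.38 to 6.48 at 18 h and 7.20 to 7.22 at 0 h. Ppbp, the platelet basic protein, was at 5.53, 5.61 and 5.44 at 18 h, against 9.07, 8.37 and 8.48 at 0 h, a difference of -3.12 ± 0.19 that ends near background. Pf4, platelet factor 4, fell by 1.22 ± 0.14, and Alas2, the erythroid enzyme of haem synthesis, was not called (-0.15 ± 0.12). Of B cell markers 3 fell and 1 rose of 14, with differences from -1.17 to 1.10. Their mean level was 6.11 to 6.24 at 18 h and 6.27 to 6.35 at 0 h. Of CD4 and regulatory T cell markers 3 fell and 1 rose of 9, at 7.06 to 7.07 at 18 h and 7.21 to 7.57 at 0 h, and Foxp3, the factor of regulatory T cells, fell by 0.87 ± 0.22 (-0.34 without replicate 3 at 0 h). Of NK cell markers 2 fell and 1 rose of 7, at 6.80 to 6.97 at 18 h and 6.84 to 7.11 at 0 h. The CD8 markers counted 8 lower and 1 higher of 9, with a median of -0.42, and 5 lower with a median of -0.319 without replicate 3 at 0 h. Leaving out that array also raised the count of lower myeloid markers to 6. The part of other cells in these results was not tested.

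The response of TMem cells was set against that of TN cells cultured alone over the same 18 h, with the limit on TN arrays given above. In TN cells 6745 genes (33.8%) were called, and the difference between the responses was called in 5754 genes (28.9%), 2831 (14.2%) higher and 2923 (14.7%) lower in TMem. This balance turned to 3368 higher and 2312 lower with each array centred on its median. Called in both and in the same direction were 3129 genes (15.7%), and in opposite directions 817 (4.1%). Gzmb was at 11.45, 11.58 and 11.56 in TN cells at 18 h, against 6.96, 6.74 and 7.10 at 0 h, a TN difference of 4.60, and the TMem minus TN difference between the responses was -4.23 ± 0.11 (adjusted p 3.47e-20). TN cells thus started far below TMem cells, which were at 12.91, 12.64 and 12.80 at 0 h. Il2ra, Il12rb2, the chain that makes cells respond to IL-12, and Tbx21 had the same form, with TN differences of 4.49, 4.12 and 3.75 and TMem minus TN differences of -4.13 ± 0.11, -3.56 ± 0.16 and -2.88 ± 0.21. Ifng rose by 4.14 in TN cells, and the difference between the responses was not called (-0.16 ± 0.63, adjusted p 0.894).

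Some genes rose in TMem cells and were not called in TN cells, with a called difference between the responses. Csf2 was at 5.83, 5.51 and 5.72 in TN cells at 18 h, against 5.80, 5.58 and 5.73 at 0 h, and the TMem response exceeded that of TN by 3.83 ± 0.44 (adjusted p 1.26e-07). The TN arrays of Csf2 overlapped between the times. Il9, Il24 and Il1a were likewise not called in TN cells (0.21, 0.24 and -0.18), and the responses differed by 3.58 ± 0.20, 3.27 ± 0.19 and 4.43 ± 0.17. Prf1 was at 9.56, 9.72 and 9.57 in TN cells at 18 h, against 9.33, 9.65 and 9.64 at 0 h, and its responses differed by 2.18 ± 0.21. Cth and Havcr2 were not called in TN cells (0.24 and 0.09), and the responses differed by 3.26 ± 0.14 and 3.23 ± 0.37. In TN cells Il1a and Havcr2 were near background at both times, and Csf2 was at 18 h. A small TN change in these genes may not be seen. Rgs2, an inhibitor of G protein signals, was at 9.64, 9.82 and 9.77 in TMem cells at 18 h, against 7.08, 6.26 and 6.65 at 0 h, and at 8.03, 8.08 and 8.13 in TN cells at 18 h, against 9.49, 9.23 and 9.45 at 0 h. It rose in TMem cells and fell in TN cells, a difference of 4.39 ± 0.19 between the responses.

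Most interferon gamma genes had opposite signs in the 2 cell types. Of 14 members 10 rose and 1 fell in TN cells, 9 were called in both cell types in opposite directions, and the difference between the responses was called in 12, always lower in TMem. Iigp1 was at 9.19, 9.23 and 9.55 in TN cells at 18 h, against 6.48, 6.70 and 6.60 at 0 h, and the responses differed by -4.27 ± 0.38. Gbp4 was at 12.33, 12.32 and 12.43 in TN cells at 18 h, against 10.22, 11.09 and 11.14 at 0 h, and the responses differed by -3.37 ± 0.26. In both genes replicate 3 was the highest TMem array at 0 h, and these differences are given with all arrays only. The type I list differed in 13 members lower and 1 higher in TMem, and 5 rose and 12 fell in TN cells. Of mitotic genes 10 fell and none rose in TN cells, and 23 of 29 differed between the responses, all lower in TMem. Starting levels of this list in TN cells are not given here. Outside it, Neil3 and Depdc1b were at 5.8 and 7.3 in TN cells at 0 h, against 9.9 and 8.8 in TMem cells at 0 h. The part of the starting level in these differences was not tested. Genes of DNA replication rose in 17 cases and fell in 2 in TN cells. Ribosome assembly genes counted 30 of 35 higher in TN cells, and the responses differed in 16 members higher and 2 lower in TMem.

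**Figure D3:**
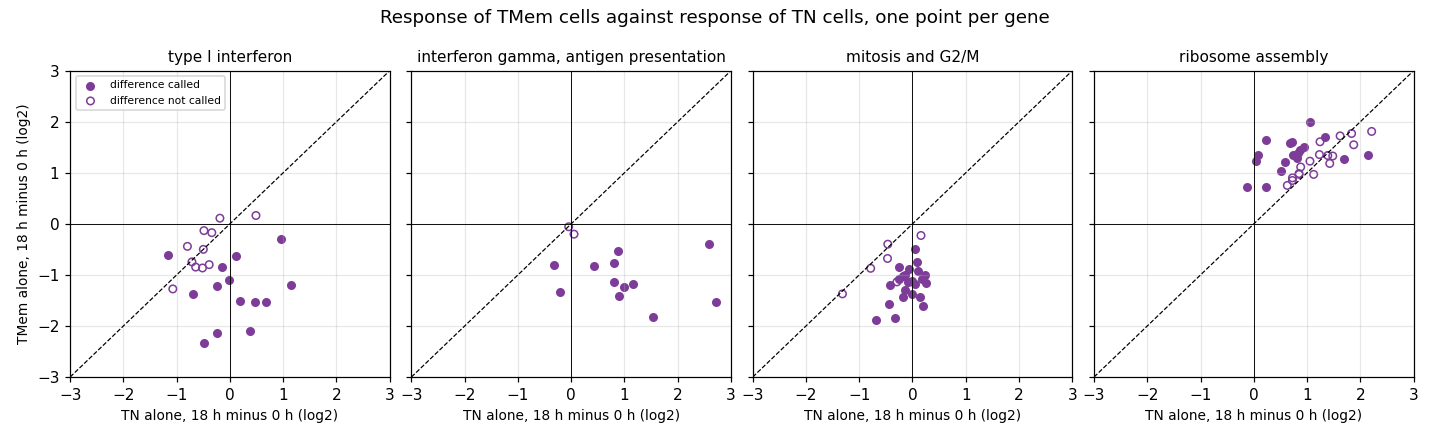
Response of TMem cells (18 h minus 0 h, log2, y axis) against that of TN cells (x axis), with a point for each gene of 4 lists. Filled points had a called difference between the responses, open points had none, and the dashed line marks equal responses. Interferon gamma genes lie below the line and mostly to the right of 0, mitotic genes below it near 0 on the x axis, and ribosome assembly genes in the upper right.

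**Figure D4:**
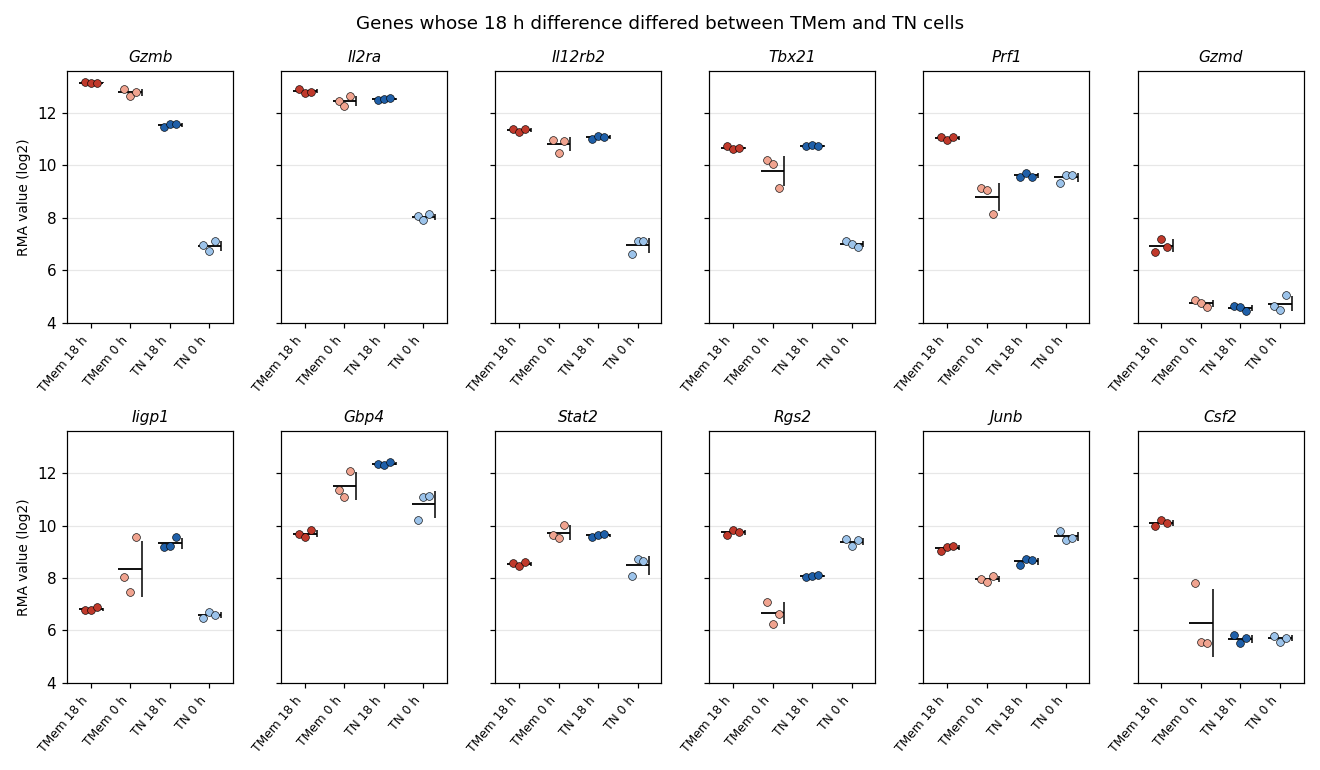
RMA values (log2, y axis) of 12 genes in TMem cells at 18 h and 0 h and TN cells at 18 h and 0 h, from left to right. Points are arrays, horizontal bars means and vertical bars 1 SD. Gzmb, Il2ra, Il12rb2 and Tbx21 were high in TMem cells at both times and low in TN cells at 0 h, and Iigp1 was lower at 18 h than at 0 h in TMem cells but higher in TN cells.

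TMem cells cultured alone for 96 h show what followed. This contrast shares the arrays at 18 h with the main one, so values are set side by side. Between 96 h and 18 h 4868 genes (24.4%) were called, 2901 higher (14.6%) and 1967 lower (9.87%) at 96 h. With each array centred on its median this balance turned to 2124 higher and 2649 lower. Ifng was at 11.36, 8.01 and 8.15 at 0 h, 13.14, 13.16 and 13.16 at 18 h and 9.20, 9.29 and 9.28 at 96 h, a 96 h minus 18 h difference of -3.90 ± 0.45. Il3 was at 4.78, 4.17 and 4.27 at 96 h, a difference of -7.55 ± 0.41, and Il2 gave -5.12 ± 0.17. All 3 were lower at 96 h than at 18 h. Il24 was at 9.80, 9.88 and 9.82 at 96 h, and its difference from 18 h was not called (-0.31 ± 0.13). Of 22 cytokines 8 were lower and 3 higher at 96 h than at 18 h, and of 11 chemokines 8 were lower and none higher.

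Granzymes D and E were higher again at 96 h. Gzmd was at 4.88, 4.74 and 4.58 at 0 h, 6.71, 7.19 and 6.87 at 18 h and 11.25, 11.21 and 11.24 at 96 h, a 96 h minus 18 h difference of 4.31 ± 0.19, and Gzme was at 5.92, 5.95 and 5.62 at 0 h, 7.41, 7.67 and 7.64 at 18 h and 11.46, 11.49 and 11.40 at 96 h, a difference of 3.88 ± 0.14. Each later time was above each earlier time in every array of both genes. Prf1 was at 11.77, 11.87 and 11.85 at 96 h, a difference of 0.78 ± 0.14, while Gzmb was not called (0.09 ± 0.08). Of 21 cytotoxic genes 12 were higher at 96 h than at 18 h and 4 lower. Mitotic genes were all higher at 96 h, 29 of 29, with Ccnb2 at 12.33, 12.36 and 12.19 at 0 h, 10.68, 10.82 and 10.69 at 18 h and 12.04, 12.12 and 12.10 at 96 h. Ribosome assembly genes were lower in 32 of 35, and Rrp9 was at 9.92, 9.90 and 9.91 at 96 h, between its levels at 18 h and 0 h. Interferon gamma genes were higher in 6 and lower in 1 of 14. Ctla4 was at 8.11, 8.02 and 8.18 at 96 h and not called against 18 h (0.12 ± 0.14), and Entpd1 was at 10.11, 10.23 and 10.20, a difference of 3.51 ± 0.12.

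**Figure D5:**
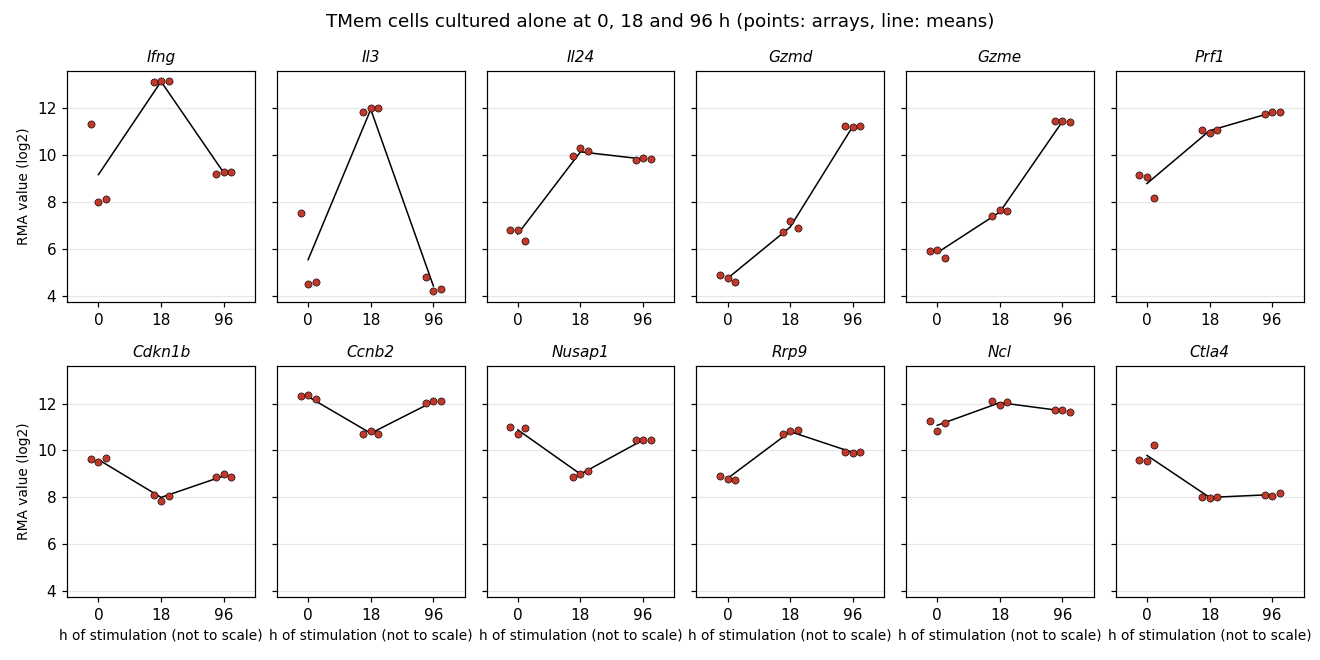
RMA values (log2, y axis) of 12 genes in TMem cells cultured alone at 0, 18 and 96 h (x axis, not to scale). Points are arrays and lines join the means. Ifng and Il3 peak at 18 h, Gzmd and Gzme are highest at 96 h, and Cdkn1b, Ccnb2 and Nusap1 are lowest at 18 h.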

How the data were processed

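RNA of sorted CD8+ T cells was amplified over whole transcripts, labelled and hybridized to Affymetrix mouse gene arrays, per the labels' protocols. The deposited table holds log2 values, for which the submitters' processing notes name RMA and Partek. Their versions and order, any filter and a detection call are stated by none of the sources used here, and the number of arrays limits the precision. Of 35556 rows, 21789 carry 1 gene symbol in the platform annotation, 1621 several and 12146 none. For the 999 of 19938 genes that had several rows, the row of highest mean level was used.

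A linear model with a mean for each of 10 groups was fitted to all 30 arrays with limma 3.58.1 in R 4.3.3 (20 residual degrees of freedom, 3 arrays per group), and p-values were adjusted over 19938 genes by Benjamini-Hochberg. The script was tested on simulated data. Groups came from the sample titles. The members and the 43 gene lists (921 members, 854 measured) were chosen with earlier results of these data known, and lists are described by counts and medians. Tcf7, Ccnb1 and Lck are among the members with no row of their own. Named genes are list members, the 40 largest called rises and the 40 largest called falls with arrays that did not overlap, and the 20 largest called differences between TMem and TN responses in each direction. Alternatives left out each array, added the replicate number as a block or array weights, fitted the compared groups alone, and changed the scaling, the filter, the variance prior and the handling of several rows per gene.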

Additional observations from a re-analysis of the deposited data

Results flagged for a closer look

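The response over 18 h differed between TMem and TN cells in 5754 genes by the limma interaction test, and in its TN part the time of stimulation and the source of the cells cannot be told apart. Among the 817 distinct list genes measured, 52 were called in both cell types in opposite directions with a called difference between them. Over all 19938 genes, 4.1% were called in opposite directions, counted without the condition on the difference. Of the 52 list genes, 14 differed by at least 2, of which 2 were higher and 12 lower in the TMem response. They are given because the 2 cell types moved in opposite ways.

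The higher genes were Rgs2, an inhibitor of G protein signals (4.39 ± 0.19), and Junb, an AP-1 subunit (2.14 ± 0.14). Of the lower ones, most belong to the interferon response: Iigp1 (-4.27 ± 0.38), Gbp4 (-3.37 ± 0.26), Gbp3 (-2.31 ± 0.22) and Irgm1 (-2.34 ± 0.23), all interferon-induced GTPases, the factor Stat2 (-2.34 ± 0.18), the RNA-decay activator Oas3 (-2.20 ± 0.15), the MHC class I regulator Nlrc5 (-2.21 ± 0.24) and the nucleic acid sensor Zbp1 (-2.01 ± 0.18). Socs2, a cytokine feedback inhibitor (-2.93 ± 0.15), Ctla4, an inhibitory receptor (-2.51 ± 0.19), Ikzf3, of the Ikaros family (-2.365 ± 0.17), and Bcl2l11, the death-promoting factor BIM (-2.21 ± 0.17), were the others. TMem arrays at 0 h spanned 2.09 in Iigp1, 1.23 in Irgm1, 1.10 in Gbp3, 1.03 in Gbp4 and 0.87 in Zbp1. They spanned 0.51 in Stat2, 0.38 in Nlrc5 and 0.21 in Oas3. In Iigp1, Irgm1 and Gbp4, replicate 3 was the highest of them. The differences between the responses are given with all arrays only.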

How the results depend on the processing

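The count of genes called between TMem cells at 18 h and 0 h was 7034 with all arrays and ranged from 5928 to 7310 when each array was left out in turn. Calls of at least 1 in size ranged from 1319 to 1464, against 1352. With the compared groups fitted alone 5827 were called. Centring each array on its median gave 61.6% higher calls against 51.0%. The count between 96 h and 18 h moved from 4868 to 7546 with array weights, and the cause was not tested.

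The labels number the repeats alike, but same-numbered arrays at 18 h and 0 h did not deviate together in every case (r = -0.078, 0.327 and 0.216 across genes), so the numbers were not taken as pairs. With the replicate number as a block 6926 genes were called, 6669 in TN cells, 5659 between the responses and 4734 between 96 h and 18 h.

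Of 879 list and leading genes, 606 were called, 522 kept their call under every alternative run and 84 lost it under at least 1. Direction turned in 5. Il18rap, a chain of the IL-18 receptor (not called with all arrays), gave -0.39 with array weights and -0.46 to 0.30 when an array was left out, and Itgb1, an integrin chain (not called with all arrays), gave -0.33 and -0.40 to 0.29. Max, the partner of Myc, gave, when an array was left out, -0.15 to 0.21. With the mean of all rows of a gene, Eef2k, a kinase of elongation factor 2, gave -0.025 (0.24 with the row used) and Hk1, a hexokinase, gave -0.19 (0.06 with the row used). With array weights Ifng gave 2.46, Ccl3 2.14, Gzmc 0.95 and Bhlhe40 0.42. Signals near background bound what can be seen of low genes.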

Other observations

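Further leading genes are given as values. Perp, a membrane protein of cell junctions, was at 10.32, 10.49 and 10.55 in TMem cells at 18 h, against 7.86, 7.31 and 6.77 at 0 h, a difference of 3.14 ± 0.16. Cd24a, a surface glycoprotein, was at 8.70, 9.14 and 9.28 at 18 h, against 5.77, 4.94 and 6.61 at 0 h, a difference of 3.26 ± 0.25, and Crabp2, a carrier of retinoic acid, at 9.66, 9.93 and 9.93 at 18 h, against 6.48, 6.74 and 6.40 at 0 h, a difference of 3.30 ± 0.15. The times did not overlap in any of these. All 3 were lower again at 96 h, with 96 h minus 18 h differences of -2.62 ± 0.16, -4.02 ± 0.25 and -3.20 ± 0.15. Alcam, a ligand of Cd6, rose by 2.75 ± 0.19, and Sema6d, a semaphorin, by 2.74 ± 0.28. Akr1c18, the enzyme that inactivates progesterone in mice, was at 8.95, 9.31 and 9.23 at 18 h, against 5.61, 5.69 and 5.19 at 0 h, a difference of at least 3.67 ± 0.15 from near background, and rose in TN cells too (3.16). Cmah, which makes a sialic acid form of mice, was at 7.89, 7.84 and 8.10 at 18 h, against 10.06, 10.11 and 10.20 at 0 h, a difference of -2.18 ± 0.13. It was not called in TN cells (0.09), and the responses differed by -2.27 ± 0.18. Hsd11b1, which activates glucocorticoids, fell in TMem cells (-2.26 ± 0.20) and in TN cells (-2.52). The TN values carry the limit on the source of those arrays.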
